A study of Homo sapiens with 9 samples.

Results

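The genes described here are 38 listed members of the NRF2 antioxidant program and of the glutathione and thioredoxin systems. They were chosen by name from their known functions, with earlier results of these data known. Of these, 36 had a probe set of their own among the 18132 genes with such a probe set on the array, and 35 were bright enough to be tested. AKR1B1 and FTH1 had no probe set assigned to them alone and were not analysed here. AKR1B10, an aldose reductase relative, was below the brightness filter: its 2 probe sets read 4.14 to 4.74 and 3.12 to 3.57 log2 over the 9 arrays, and it was not tested.

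Expression was measured on 9 one-colour Affymetrix arrays, 3 in each of 3 groups, in an insulin-resistant form of the human hepatoma line HepG2 that the labels call R-HepG2. After a night without serum, cells spent 4 h in DMEM alone (medium), in insulin or in biomineralized insulin, with both insulin preparations at 40 ug/ml. The tags give R-HepG2 as the line of the medium arrays but plain HepG2 for both treatments, and the protocols name R-HepG2 alone, so a difference in the cells and the treatment cannot be told apart from the tags alone. No source used here says how resistance was produced, no group received the mineral without insulin, and nothing says whether replicates were separate cultures, so p-values measure only the spread between these arrays, which may be technical.

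The labels name liver and hepatoma. Of 14 measured hepatocyte markers, 4 were above the brightness filter (APOA1, AHSG, TTR and TF), whereas the defining markers ALB at 3.40 log2, AFP at 2.93 and APOB at 2.78 were below it. The mean level of the hepatocyte list was 4.04 in medium, 4.06 in insulin and 4.06 in biomineralized insulin. The lung epithelial factor NKX2-1, with means of 6.14, 6.36 and 6.73, and the lung protease NAPSA, at 6.46 over all arrays, were among 4 of 8 measured lung epithelial markers above the filter. The list means of the lung markers were 4.48, 4.54 and 4.66, those of fibroblast markers 6.10, 6.09 and 6.11 (5 of 6 above the filter), those of endothelial markers 5.14, 5.20 and 5.23 (4 of 4), and those of blood markers 5.35, 5.34 and 5.44 (3 of 4). The part of these markers in the results was not tested. The label of liver cells therefore rests on the submitters, and the cells are called by their label below.

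NRF2, encoded by NFE2L2, is a transcription factor that is held at a low level by KEAP1, an adaptor that hands it to a CUL3 ubiquitin ligase. Oxidants and electrophiles modify KEAP1, NRF2 then accumulates, pairs with small MAF proteins and binds antioxidant response elements in the promoters of genes for detoxification, glutathione synthesis, thioredoxin reduction, haem breakdown and NADPH supply. Glutathione and thioredoxin are the cell's main thiol reductants, each kept reduced by an NADPH-dependent reductase, and in liver they carry much of the defence against peroxides and reactive metabolites.

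The core of the antioxidant response element, TGACNNNGC on either strand, was searched in RefSeq promoter windows (250 bases before to 50 after each start, GRCh38.p14), to show which members carry it close to their start. The windows of 30 members were matched, and FTH1, GSS, PRDX6, PRDX1, ABCC3, GSR, HMOX1 and AKR1B10 were not matched. The core was found in 11 of 41 member windows (26.8%), against 13.3% of all 35116 windows. Counted by gene, it was found in 10 of 30 members (33.3%), against 19.3% of 9981 tested genes with a window. With an A required after the last base (TGACNNNGCA), the shares were 22.0% of member windows and 3.18% of all windows, or 30.0% of members and 4.08% of tested genes. A match is a description of the letters and not a binding site. The sites below are given 5′ to 3′ along the gene's own strand, with the matching bases in capitals and 15 bases on each side. They belong to the thioredoxin reductase gene TXNRD1, the glutamate-cysteine ligase modifier GCLM, the glutathione transferase GSTP1, the NRF2 adaptor KEAP1 and the carbonyl reductase CBR1.
TXNRD1, chr12:104215665-104215703, plus strand: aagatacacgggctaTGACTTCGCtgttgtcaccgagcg
TXNRD1, second start, chr12:104286915-104286953, plus strand: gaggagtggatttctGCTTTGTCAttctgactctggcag
GCLM, chr1:93909441-93909479, minus strand: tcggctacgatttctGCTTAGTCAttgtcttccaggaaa
GSTP1, chr11:67583731-67583769, plus strand: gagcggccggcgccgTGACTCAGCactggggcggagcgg
KEAP1, chr19:10502779-10502817, minus strand: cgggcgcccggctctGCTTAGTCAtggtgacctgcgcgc
CBR1, chr21:36069850-36069888, plus strand: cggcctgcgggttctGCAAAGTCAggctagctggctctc
The GSTP1 match also holds the AP-1 motif TGACTCA. On the deposited scale, biomineralized insulin arrays were higher than medium for 3 of the members with the core (CBR1, KEAP1 and MGST1) and lower for 3 (GCLM, GSTP1 and TXNRD1), and 4 (EPHX1, GPX2, GSTO1 and PGD) did not pass the test, where 50.9% of all genes passed. After spike-in centring all 10 lay below medium.

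Array values are deposited log2 intensities. In limma, a gene counted as changed (called) where its adjusted p (Benjamini-Hochberg, 12240 genes) was under 0.05, and each ± below is the standard error of a difference with 3 arrays a group unless SD is written. Arrays within a group correlated at 0.9977 to 0.9984, and 78.4% of the variance lay on principal component 1. The 24 poly-A spike-in probe sets read RNA meant to be added to each sample in a fixed amount. Whether the amounts were equal was not tested. These probe sets read 0.40 log2 higher in biomineralized insulin than in medium and 0.39 higher than in insulin. Their array means were 7.50, 7.80 and 7.57 in biomineralized insulin (SD 0.16), above the other 6 arrays. The SD was 0.069 in medium and 0.024 in insulin. The size of the shift is thus uncertain, and any error in it enters the centred differences of all genes alike. Adjusted p-values after centring treat this error as separate for each gene. They are therefore not firm, and the calls after centring can come and go together. After the arrays were centred on these probe sets, the median difference between biomineralized insulin and medium was -0.38 for all genes. For the members it was -0.40. Directions are therefore given for the deposited scale, with the sign after spike-in centring wherever it flips. Actin, read at its 3' and 5' ends as a measure of RNA quality, had a difference between them of 3.02 ± 0.059 (SD) in medium, 3.19 ± 0.080 in insulin and 3.07 ± 0.10 in biomineralized insulin, and its part in the results was not tested. In bulk RNA, fewer cells of a type and less RNA per cell cannot be told apart.

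Insulin against medium asks what soluble insulin did to resistant cells. 4 of the 35 tested members were called (11.4%), all higher: the aldo-keto reductases AKR1C1, AKR1C2 and AKR1C3 and the carbonyl reductase CBR1, all of which reduce carbonyl groups with NADPH. Over all genes 2.45% were called, 1.25% higher and 1.2% lower. Without overlap, 7 members lay above medium (9.17% of all genes) and 4 below (9.1%). The median difference of the members was -0.0064 log2, against 0.0073 over all genes. None of the 4 was called after spike-in centring (0.00817% of all genes were higher and 0.049% lower). Their differences changed little, to 0.23 for AKR1C1, 0.19 for AKR1C2, 0.16 for AKR1C3 and 0.17 for CBR1. The spike-ins themselves differed by 0.018 log2 between insulin and medium. The fit shares its spread estimate over the 3 groups, and the spike-in SD was 0.16 in biomineralized insulin. Why the calls were lost was not tested. AKR1C1 and AKR1C2 are near-identical copies whose probes may share signal, so they are not independent.

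Biomineralized insulin against medium asks what the mineral-bound form did. It gave calls for 22 of 35 members (62.9%), 10 higher and 12 lower, where 50.9% of all genes were called, 25.7% higher and 25.2% lower. The members' median difference was 0.00088 log2 (0.022 over all genes) and their median absolute difference was 0.17 (0.16 over all genes). Members were called in both directions, and the share called is not far above that of all genes. Without overlap, 11 members lay above medium (28.9% of all genes) and 12 below (27.7%). UGDH was the only member at or above 1.5-fold. After spike-in centring 26 members were called lower and 1 higher, where 74.5% of all genes were lower and 2.23% higher. Centring lowers every difference here by 0.40 log2, so falls grow and rises shrink by construction. All 12 falls were called lower, 7 of the 10 rises were below 0, and UGDH alone was still called higher.

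Biomineralized insulin against insulin asks what biomineralization added to insulin. It gave calls for 21 of 35 members (60%), 10 higher and 11 lower, against 44.4% of all genes (21.1% higher and 23.3% lower), with a member median of -0.022. Without overlap, 10 members lay above insulin (26.4% of all genes) and 13 below (26.3%). After spike-in centring 28 were called lower and 0 higher, where 77.2% of all genes were lower and 1.35% higher. In all, 18 members were called against medium and against insulin, and all 18 had the same direction in both, although these comparisons share the biomineralized insulin arrays. With the main settings, HMOX1, OSGIN1 and PRDX1 were called only against insulin, and CBR1, FTL, GPX1 and TXN only against medium. Other settings changed several of these calls, as given below. Whether the differences themselves differ was not tested.

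**Figure D1:**
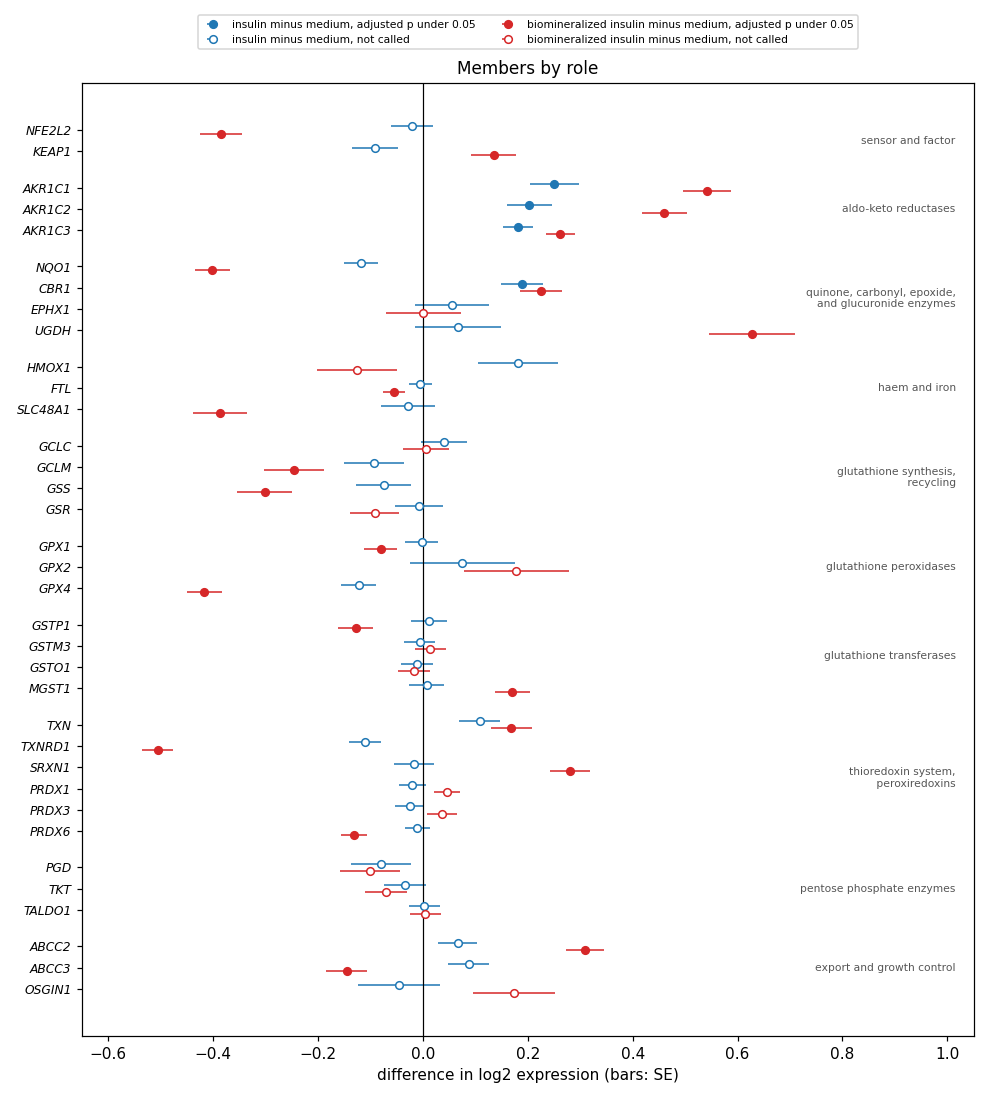
Differences in log2 intensity (x axis) of the 35 tested members by role (y axis), for insulin minus medium and biomineralized insulin minus medium, with bars of 1 standard error (3 arrays a group) and filled points for adjusted p under 0.05. Called members in biomineralized insulin ranged from TXNRD1 at -0.51 to UGDH at 0.63, with the aldo-keto reductases all higher and the haem, glutathione synthesis and peroxidase calls all lower; after spike-in centring only UGDH, AKR1C1 and AKR1C2 of the called rises stay above 0.

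On the deposited scale the regulators came apart. After spike-in centring both were called lower than medium, NFE2L2 at -0.79 (adjusted p = 2.22e-15) and KEAP1 at -0.27 (adjusted p = 0.0151). These p-values treat the shared error of the centring as separate for each gene. NFE2L2, the NRF2 gene itself, read 12.09, 12.10 and 12.09 in medium, 12.15, 11.97 and 12.09 in insulin, and 11.66, 11.77 and 11.69 in biomineralized insulin. Its 3 biomineralized insulin arrays lay below all 6 others. The difference was -0.38 ± 0.040 against medium (adjusted p = 5.91e-07) and -0.36 against insulin (adjusted p = 1.47e-06), and another probe set of the gene gave -0.66 against medium. KEAP1 read 8.70, 8.70 and 8.66 in medium, 8.55, 8.65 and 8.58 in insulin, and 8.81, 8.81 and 8.84 in biomineralized insulin. It was highest in biomineralized insulin with no overlap, by 0.13 ± 0.043 against medium (adjusted p = 0.0162, turning to -0.27 after spike-in centring) and by 0.23 against insulin (adjusted p = 0.000413, turning to -0.16). Against medium the KEAP1 call was lost without biomineralized insulin replicate 3 (adjusted p = 0.052).

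The carbonyl-reducing enzymes held the calls in insulin. AKR1C1 read 8.98, 8.94 and 8.96 in medium, 9.14, 9.20 and 9.29 in insulin, and 9.52, 9.43 and 9.55 in biomineralized insulin. AKR1C2 read 9.68, 9.64 and 9.71 in medium, 9.83, 9.87 and 9.94 in insulin, and 10.14, 10.08 and 10.20 in biomineralized insulin. Both genes stood in 3 separate steps without overlap, medium lowest and biomineralized insulin highest. AKR1C1 differed by 0.25 ± 0.046 in insulin against medium (adjusted p = 0.0108), by 0.54 in biomineralized insulin against medium (adjusted p = 6.06e-08) and by 0.29 against insulin (adjusted p = 7.52e-05, turning to -0.095 after spike-in centring). For AKR1C2 these differences were 0.20 ± 0.043 (adjusted p = 0.0211), 0.46 (adjusted p = 1.47e-07) and 0.26 (adjusted p = 0.000108, turning to -0.13). After spike-in centring the differences against medium were 0.14 for AKR1C1 and 0.056 for AKR1C2, neither called (adjusted p = 0.203 and 0.599).

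AKR1C3, which reduces steroids and prostaglandins, read 11.79 to 11.85 in medium, 11.99 to 12.02 in insulin and 12.07 to 12.12 in biomineralized insulin, again with no overlap. It was 0.18 ± 0.028 higher in insulin than in medium (adjusted p = 0.00339) and 0.26 higher in biomineralized insulin than in medium (adjusted p = 7.18e-07, turning to -0.14 after spike-in centring). The step between the insulin forms was 0.081 (adjusted p = 0.0255, turning to -0.30), and it lost its call without insulin replicate 1 or 3 or biomineralized insulin replicate 1 (adjusted p = 0.084, 0.057 and 0.11). CBR1 read 11.04 to 11.20 in medium, 11.28 to 11.37 in insulin and 11.34 to 11.37 in biomineralized insulin, so both treated groups lay above medium and overlapped each other. It was 0.19 ± 0.040 higher in insulin than in medium (adjusted p = 0.0215) and 0.23 higher in biomineralized insulin than in medium (adjusted p = 0.000166, turning to -0.18). In insulin against medium, leaving out medium replicate 2 or insulin replicate 3 ended the calls of AKR1C1 (adjusted p = 0.07 and 0.081), AKR1C2 (0.11 and 0.14) and CBR1 (0.089 and 0.14), and leaving out medium replicate 1 that of CBR1 (0.071). The insulin difference of CBR1 also depended on the probe set: its other 5 above the filter gave 0.0045 to 0.13, and the mean of its probe sets was not called (0.099, adjusted p = 0.244). That mean was not called for AKR1C2 either (0.16, adjusted p = 0.119). The AKR1C3 call held without any single array and was lost without the intensity trend (adjusted p = 0.081), as were those of AKR1C1 and AKR1C2 (0.0698 and 0.107).

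The promoters of the AKR1C genes, which lie side by side on chromosome 10, are shown because these members moved in the same steps. Each is the 100 bases before the start on the gene's own strand (RefSeq, GRCh38.p14), with the 19 bases that are identical in all 3 in capitals. AKR1C3 has 2 windows, and the one with the longest run shared with AKR1C1 is printed.
AKR1C1, chr10:4963315-4963414, plus strand: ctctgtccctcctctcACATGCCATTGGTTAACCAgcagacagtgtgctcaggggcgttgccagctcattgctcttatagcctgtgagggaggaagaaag
AKR1C2, chr10:5003858-5003957, minus strand: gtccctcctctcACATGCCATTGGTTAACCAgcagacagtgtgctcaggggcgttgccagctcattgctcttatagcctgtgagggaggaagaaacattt
AKR1C3, chr10:5094314-5094413, plus strand: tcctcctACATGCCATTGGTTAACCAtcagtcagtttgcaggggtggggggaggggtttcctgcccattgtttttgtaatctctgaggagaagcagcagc
Within 250 bases before the start, the longest identical run was 245 bases between AKR1C1 and AKR1C2 and 19 bases between AKR1C1 and AKR1C3. None of the 3 genes held the antioxidant response element core in its window, which says only that these letters are not there.

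The other detoxification enzymes went in opposite directions. NQO1, a quinone reductase and a standard readout of NRF2 activity, read 11.06, 11.05 and 11.01 in medium, 10.92, 10.95 and 10.89 in insulin, and 10.64, 10.60 and 10.67 in biomineralized insulin. The groups did not overlap, with biomineralized insulin lowest. NQO1 fell by 0.40 against medium (standard error 0.033, adjusted p = 3.46e-08) and by 0.28 against insulin (adjusted p = 2.54e-06). UGDH, which makes the UDP-glucuronate used to conjugate drugs and bilirubin, read 8.78, 8.51 and 8.49 in medium, 8.77, 8.44 and 8.77 in insulin, and 9.19, 9.20 and 9.26 in biomineralized insulin. Medium and insulin overlapped and biomineralized insulin lay above both. The difference was 0.63 ± 0.083 against medium, or 1.54-fold (adjusted p = 7.88e-06, and 0.22 with adjusted p = 0.0426 after spike-in centring). Against insulin it was 0.56 (adjusted p = 3.32e-05), but 0.17 and not called after spike-in centring (adjusted p = 0.11). Both centred p-values are subject to the shared error of the centring. Both UGDH probe sets have names that mark shared sequence, so the gene could not be tested without such probe sets. EPHX1, the microsomal epoxide hydrolase, ranged from 5.61 to 5.77 over the 9 arrays and was not called in any comparison on the deposited scale. After spike-in centring EPHX1 was called lower than medium (-0.40, adjusted p = 0.00255).

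In haem and iron handling, HMOX1, the inducible haem oxygenase, read 7.08, 7.05 and 7.03 in medium, 7.14, 7.17 and 7.39 in insulin, and 7.08, 6.85 and 6.85 in biomineralized insulin. Its insulin arrays were highest, without overlap with either other group, and the 2 lowest values were in biomineralized insulin. Insulin against medium gave 0.18 (adjusted p = 0.251), biomineralized insulin against medium -0.13 (adjusted p = 0.187), and biomineralized insulin against insulin -0.31 ± 0.076 (adjusted p = 0.00346). Without biomineralized insulin replicate 1, the difference from medium was -0.20 and was called (adjusted p = 0.044), as it was with the mean of its probe sets (-0.20, adjusted p = 0.0383) and with its most variable probe set (-0.35, adjusted p = 0.0144). After spike-in centring HMOX1 was also called lower than medium (-0.53, adjusted p = 1.39e-05). SLC48A1, a haem transporter, read 8.0, 7.99 and 7.97 in medium, 7.92, 8.03 and 7.92 in insulin, and 7.55, 7.64 and 7.61 in biomineralized insulin. It fell by 0.39 against medium (standard error 0.051, adjusted p = 8.2e-06), without overlap. However, 2 of its 4 probe sets, at 5.56 and 5.85 log2 in medium against 7.99, lay on the other side of 0, up to 0.032. The mean of all 4 was not called (adjusted p = 0.12). FTL, the light chain of the iron store ferritin, differed by -0.055 against medium (adjusted p = 0.041), a call lost without medium replicate 1 or 2 or any biomineralized insulin replicate (adjusted p of 0.072 to 0.13). Against insulin its difference of -0.051 was not called (adjusted p = 0.067), but it was called in 7 of 21 other settings. These included the mean of its probe sets (-0.087, adjusted p = 0.00244).

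Glutathione synthesis split between its enzymes on the deposited scale. GCLC, the catalytic subunit of the rate-limiting glutamate-cysteine ligase, read 9.43, 9.44 and 9.40 in medium, 9.48, 9.37 and 9.54 in insulin, and 9.43, 9.43 and 9.43 in biomineralized insulin, with all groups overlapping and a difference from medium of 0.0057 (adjusted p = 0.925, turning to -0.40 after spike-in centring). GCLM, its modifier subunit, read 9.42, 9.42 and 9.18 in medium, 9.24, 9.25 and 9.24 in insulin, and 9.05, 9.09 and 9.15 in biomineralized insulin, where it was lowest. GCLM fell by 0.25 against medium (standard error 0.057, adjusted p = 0.00181). Another, dimmer probe set of GCLM (5.32 log2 in medium, against 9.34) gave -0.018, and the mean of its probe sets was not called (adjusted p = 0.076). Its smaller difference against insulin, -0.15 (adjusted p = 0.0405), lost its call without any insulin replicate or without biomineralized insulin replicate 1 or 2 (adjusted p of 0.078 to 0.14). GSS, which joins the last amino acid to make glutathione, read 8.32, 8.25 and 8.30 in medium, 8.12, 8.25 and 8.27 in insulin, and 7.95, 7.96 and 8.04 in biomineralized insulin. Its biomineralized insulin arrays lay below the other 6, with differences of -0.30 ± 0.053 against medium (adjusted p = 0.000142) and -0.23 against insulin (adjusted p = 0.00205). GSR, which reduces oxidized glutathione, differed by -0.092 against medium and was not called (adjusted p = 0.113), while the mean of its probe sets was (-0.13, adjusted p = 0.0202). After spike-in centring GSR was called lower than medium (-0.50, adjusted p = 2.46e-06).

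Among the glutathione peroxidases, GPX4, which removes lipid peroxides, read 11.13, 11.16 and 11.10 in medium, between 10.98 and 11.05 in insulin, and 10.76, 10.67 and 10.71 in biomineralized insulin. The 3 groups did not overlap. GPX4 fell by 0.42 against medium (standard error 0.034, adjusted p = 3.47e-08) and by 0.29 against insulin (adjusted p = 2.62e-06), and the insulin difference from medium, -0.12, was not called (adjusted p = 0.0714), but it was called without insulin replicate 2 (adjusted p = 0.042) and with array weights (0.0218). GPX1, the cytosolic peroxidase, differed by -0.081 against medium (adjusted p = 0.0422). That call was lost without any biomineralized insulin replicate (adjusted p of 0.062 to 0.14) or without medium replicate 3, which left -0.054 (adjusted p = 0.19). Against insulin the GPX1 difference of -0.078 was not called (adjusted p = 0.054), but it was called in 5 of 21 other settings. GPX2 was not called against medium (0.18, adjusted p = 0.152, turning to -0.23 after spike-in centring). It was called without medium replicate 3 (0.26, adjusted p = 0.042) and with array weights (0.27, adjusted p = 0.0286). Of the glutathione transferases, MGST1, a membrane-bound form, was 0.17 higher in biomineralized insulin than in medium (adjusted p = 0.000459) and 0.16 higher than in insulin (adjusted p = 0.000799), turning to -0.23 and -0.22 after spike-in centring. GSTP1 differed from medium by -0.13 on its brightest probe set (adjusted p = 0.0043) but by 0.083 on its other one, and their mean was not called (adjusted p = 0.70). GSTM3 and GSTO1 stayed within 11.56 to 11.71 on every array and were not called on the deposited scale. After spike-in centring both were called lower than medium (-0.39 and -0.42).

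The thioredoxin system held the strongest call among the members. TXNRD1, the reductase that keeps cytosolic thioredoxin reduced, read 12.40, 12.42 and 12.47 in medium, 12.31, 12.35 and 12.30 in insulin, and 11.88, 11.96 and 11.93 in biomineralized insulin. The groups stood in 3 separate steps, with biomineralized insulin lowest. TXNRD1 fell by 0.51 against medium (1.42-fold, standard error 0.030, adjusted p = 7.34e-10) and by 0.40 against insulin (adjusted p = 2.01e-08), and other probe sets of the gene gave -0.77 and -0.76 against medium. Its difference of -0.11 in insulin against medium was not called (adjusted p = 0.0656), but it was called without insulin replicate 2 (adjusted p = 0.04), with array weights (0.0314), after a repeated quantile normalization (0.0418) and with the dimmest 60 percent of probe sets left out (0.0498). TXN, the thioredoxin that TXNRD1 reduces, went the other way: it was 0.17 higher in biomineralized insulin than in medium (adjusted p = 0.0018), turning to -0.24 after spike-in centring. Against insulin its difference of 0.060 was not called (adjusted p = 0.236, turning to -0.33). TXN was called there with the mean of its probe sets (0.12, adjusted p = 0.000967) and with its most variable probe set (0.17, adjusted p = 0.000676). SRXN1, which restores overoxidized peroxiredoxins, read 9.92, 9.94 and 9.85 in medium, 9.86, 9.91 and 9.90 in insulin, and 10.15, 10.23 and 10.17 in biomineralized insulin. Its biomineralized insulin arrays lay above the other 6, by 0.28 ± 0.038 against medium (adjusted p = 1.16e-05, turning to -0.12 after spike-in centring) and 0.30 against insulin (adjusted p = 8.28e-06, turning to -0.090). The only probe set of SRXN1 has a name that marks shared sequence, so SRXN1 could not be tested without such probe sets.

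The peroxiredoxins, which remove peroxides with electrons from thioredoxin or glutathione, moved little. PRDX1 was called only against insulin, at 0.067 (adjusted p = 0.0429, turning to -0.32 after spike-in centring), and lost that call when medium replicate 2, any insulin replicate or biomineralized insulin replicate 1 or 3 was left out (adjusted p of 0.055 to 0.15). PRDX3, the mitochondrial form, was not called (0.036 against medium, adjusted p = 0.312, turning to -0.37 after spike-in centring). PRDX6 differed by -0.13 against medium (adjusted p = 0.000212), with 2 of its 4 probe sets on the other side of 0 and the mean of its probe sets not called (adjusted p = 0.24).

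The pentose phosphate enzymes that help to supply NADPH, PGD, TKT and TALDO1, were not called in any comparison on the deposited scale, with differences from medium of -0.10, -0.070 and 0.0048, the last turning to -0.40 after spike-in centring. PGD was called against medium without biomineralized insulin replicate 3 (-0.16, adjusted p = 0.031), and TKT without biomineralized insulin replicate 2 (-0.11, adjusted p = 0.049). After spike-in centring PGD and TKT were called lower than medium (-0.51 and -0.47), as was TALDO1. The TKT value depended on the probe set: another, at 6.41 log2 in medium against 11.90, gave -0.37 against medium and -0.35 against insulin. The mean of the TKT probe sets was called in both (-0.16 with adjusted p = 0.00139, and -0.14 with adjusted p = 0.00499).

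The export pumps for glutathione and glucuronide conjugates diverged on the deposited scale. ABCC2, the canalicular pump that secretes conjugates into bile, read 10.02, 9.94 and 10.01 in medium, 10.07, 10.05 and 10.04 in insulin, and 10.32, 10.25 and 10.32 in biomineralized insulin. Its biomineralized insulin arrays lay above all others, by 0.31 ± 0.037 against medium (adjusted p = 2.63e-06, turning to -0.095 after spike-in centring) and 0.24 against insulin (adjusted p = 4.44e-05, turning to -0.14). ABCC3, the basolateral pump, was lower, by -0.15 against medium (adjusted p = 0.00465) and -0.23 against insulin (adjusted p = 0.000109). Another probe set of ABCC3, at 6.32 log2 in medium against 9.27, gave 0.032 against insulin. The mean of its probe sets against medium was not called (adjusted p = 0.12). OSGIN1, an oxidative stress-induced growth inhibitor, was 0.22 higher than in insulin (adjusted p = 0.0307, turning to -0.17 after spike-in centring). It lost that call without insulin replicate 1 or 2 or biomineralized insulin replicate 1 (adjusted p = 0.091, 0.11 and 0.14).

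**Figure D2:**
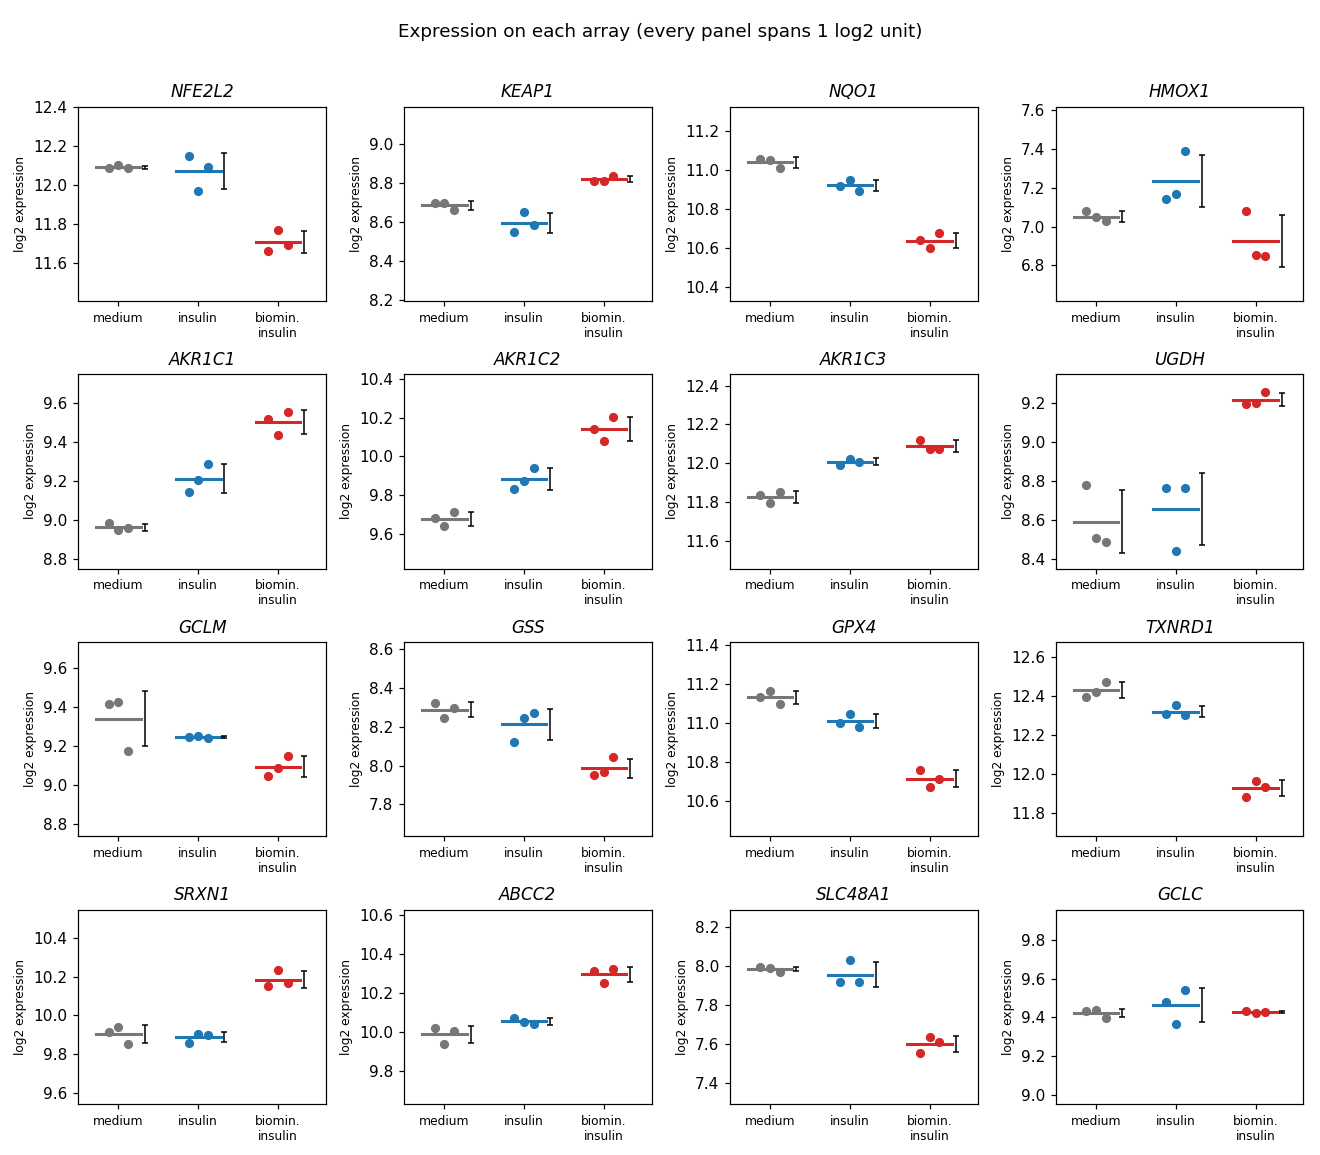
Log2 intensity (y axis, each panel spanning 1 log2 unit) of 16 members on the 9 arrays by group (x axis), with points for arrays, a line for the mean of 3 and a bar for the SD. NFE2L2, NQO1, GSS, GPX4, SLC48A1 and TXNRD1 are lowest in biomineralized insulin and UGDH, AKR1C1, AKR1C2, AKR1C3, SRXN1, ABCC2 and KEAP1 highest on this scale; after spike-in centring SRXN1, ABCC2, KEAP1 and AKR1C3 turn below medium, and AKR1C1 and AKR1C2 below insulin.

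**Figure D3:**
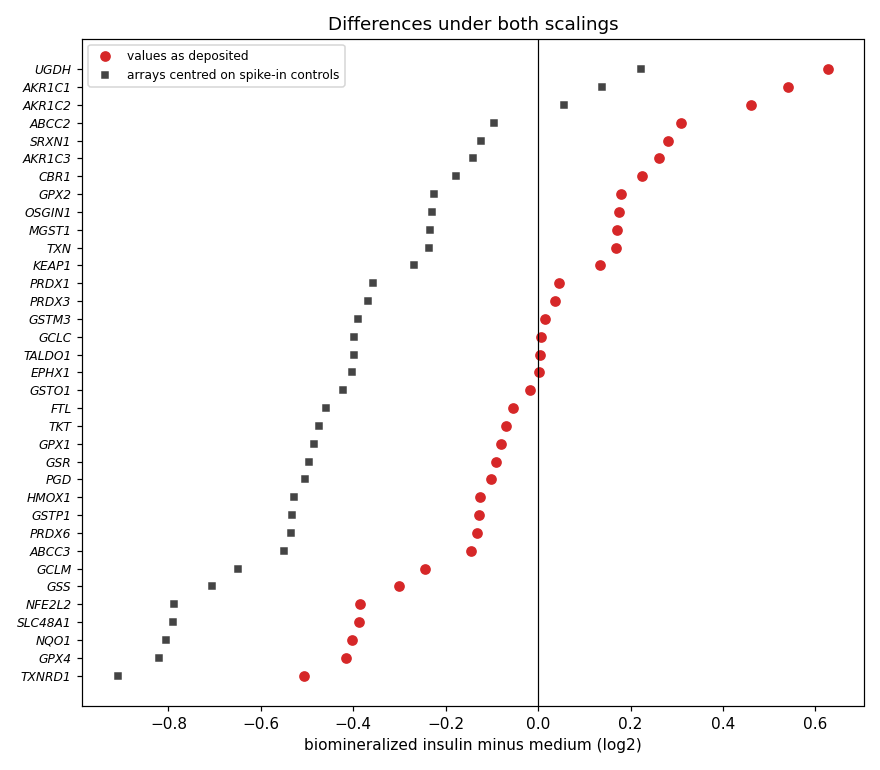
Difference between biomineralized insulin and medium in log2 intensity for the 35 members as deposited and after centring the arrays on 24 poly-A spike-in probe sets. Centring lowers every member by 0.40, so 7 of the 10 called rises lie below 0 and all 12 called falls are larger.

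Several probe sets above the filter were available for 27 members. In biomineralized insulin against medium all probe sets of a gene had the same sign for 22 of the 27, and for 16 of the 19 that were called. The 3 called members with probe sets on opposite sides of 0 were GSTP1, PRDX6 and SLC48A1, and against insulin ABCC3 was a further one. Against medium, the opposite probe sets of GSTP1 and SLC48A1 were dim (5.10 to 5.85 log2 in medium), and those of PRDX6 were bright (11.04 and 11.30). NFE2L2 and TXNRD1 were lower on every probe set, and the probe set with the highest mean gave a smaller fall than the others.

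**Figure D4:**
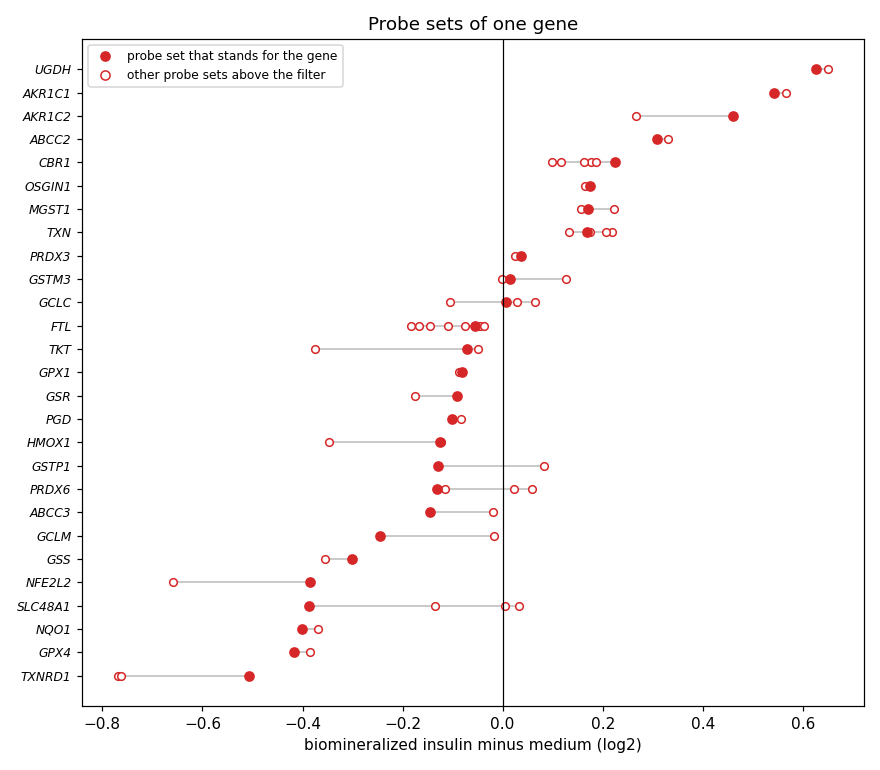
Biomineralized insulin minus medium in log2 intensity (x axis) for every probe set above the brightness filter of the 27 members with several (y axis), with the tested probe set marked. Probe sets lie on one side of 0 for 22 of the 27 members, and GSTP1, PRDX6 and SLC48A1 are the called exceptions.

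Beyond the members, 117 further genes of the same pathways were listed, of which 89 were tested. These lists too were drawn up with earlier results of these data known, so their shares and sizes only describe them. In insulin against medium 4 of the 89 (4.49%) were called, all lower: MAFG at -0.23 (adjusted p = 0.0304), NFE2L1 at -0.19 (0.0139), SLC3A2 at -0.14 (0.0217) and TXNIP at -0.13 (0.0417). None was called after spike-in centring, although the differences were then no smaller (-0.25, -0.21, -0.16 and -0.14). Leaving out medium replicate 2, insulin replicate 1 or insulin replicate 3 ended all 4 of these calls. In biomineralized insulin against medium 58 of 89 were called (65.2%), 17 higher and 41 lower, with a median of -0.068, and against insulin 16 were higher and 42 lower. Over all genes 50.9% and 44.4% were called in these comparisons. After spike-in centring 2 were higher and 78 lower than medium, and 1 higher and 78 lower than insulin. The list counts below are for biomineralized insulin against medium, where 25.7% of all genes were higher and 25.2% lower (2.23% and 74.5% after spike-in centring). These genes reached larger differences than any member.

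The other glutathione genes gave 3 higher and 12 lower of 26 (0 and 24 after spike-in centring). SLC7A11, the cystine importer that feeds glutathione synthesis, was lower in biomineralized insulin than in medium, with a difference of -3.18 ± 0.036 log2 or 9.05-fold (adjusted p = 1.32e-18), while its weakest probe set gave -0.80 and the mean of its probe sets -2.46. Its partner chain SLC3A2 gave -0.92 ± 0.029 (adjusted p = 3.07e-13), the glutathione-degrading enzyme CHAC1 gave -2.17 ± 0.13 (adjusted p = 8.05e-10, with its other probe set at -1.06), and the mitochondrial glutaredoxin GLRX2 gave -0.57 ± 0.031 (adjusted p = 3.13e-10).

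The other thioredoxin and antioxidant genes gave 8 higher and 7 lower of 20 (1 and 16 after spike-in centring). SESN2, a stress-induced sestrin, gave -2.49 ± 0.058 (adjusted p = 6.06e-15), whereas its relative SESN1 gave 0.64 ± 0.063 (adjusted p = 3.14e-07, and 0.23 after spike-in centring). TXNIP, which binds and inhibits thioredoxin, gave -1.77 ± 0.031 (adjusted p = 2.05e-16), and the methionine sulfoxide reductase MSRB2 gave -0.85 ± 0.051 (adjusted p = 8.86e-10). The other NADPH-producing and pentose phosphate genes gave 1 higher and 6 lower of 12 (0 and 11 after spike-in centring). Among them IDH1, the cytosolic isocitrate dehydrogenase, gave -1.11 ± 0.038 (adjusted p = 6.39e-13), the mitochondrial folate enzyme MTHFD2 gave -1.02 ± 0.039 (adjusted p = 3.04e-12), PGLS gave -0.34 and IDH2 gave -0.30.

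The other regulators gave 2 higher and 7 lower of 13 (1 and 11 after spike-in centring). CUL3, the ligase scaffold that KEAP1 uses, was 0.81 ± 0.045 higher (adjusted p = 3.18e-10) and 0.40 higher after spike-in centring, with its weakest probe set at 0.10. GSK3B, a kinase that marks NRF2 for breakdown by another route, gave -0.52, the NRF2 partner MAFG gave -0.43 and the related factor NFE2L1 gave -0.41, with 1 of its 6 probe sets on the other side of 0. The haem, iron and detoxification genes gave 3 higher and 9 lower of 18 (0 and 16 after spike-in centring), with the biliverdin reductase BLVRB at -0.91 ± 0.050 (adjusted p = 3.00e-10), CBR4 at -0.57, PIR at -0.56 and the carboxylesterase CES2 at 0.60 (0.20 after spike-in centring, no longer called, adjusted p = 0.129).

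**Figure D5:**
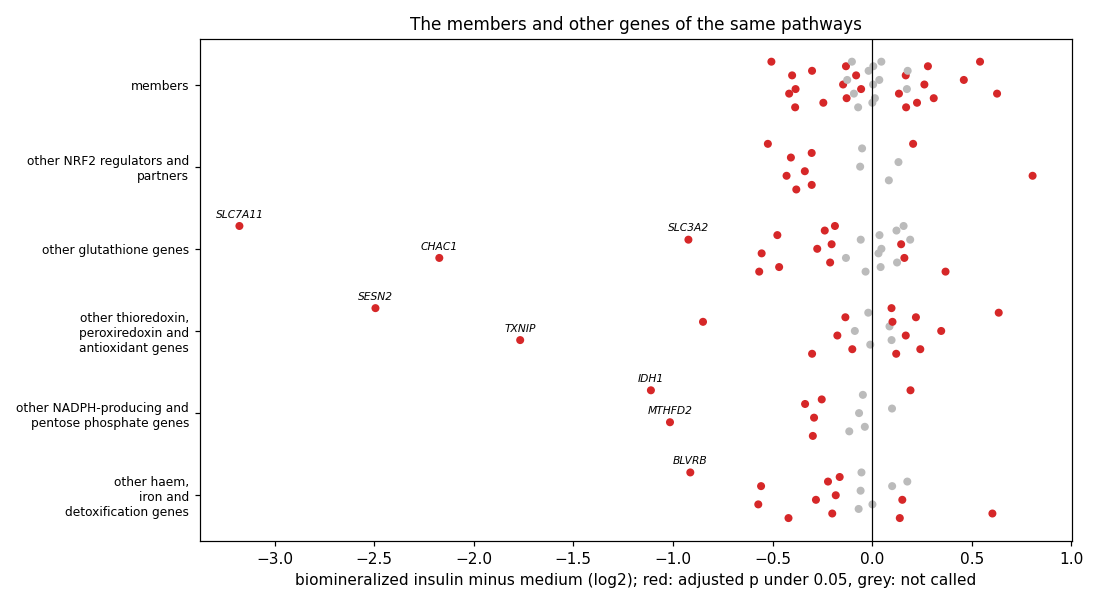
Biomineralized insulin minus medium in log2 intensity for the tested members and for the 5 lists of other pathway genes, with called genes in red and others in grey. The members lie between -0.51 and 0.63, while SLC7A11 reaches -3.18, SESN2 -2.49 and CHAC1 -2.17; rises above 0 shift down by 0.40 after spike-in centring.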

How the data were processed

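The members and gene lists were chosen with earlier results of these data known. The authors deposited log2 values per probe set; the range of 2.02 to 14.3 and near-equal array medians were used to identify the scale, and the software and normalization are not given in the sources used here. Of 49395 probe sets, 44994 had 1 gene symbol, 1832 several and 2473 none listed, and 102 were controls; 44967 symbols were updated through Entrez identifiers (RefSeq, GRCh38.p14) and 27 kept. Per the labels' protocols, RNA was labelled with a 3' in vitro transcription kit. Probe sets among the dimmest 40 percent (under 4.743 log2) were dropped, and the probe set with the highest mean stood for its gene, leaving 12240 genes. All 9 arrays entered 1 limma fit (lmFit, then eBayes with an intensity trend, in limma 3.58.1 under R 4.3.3, 6 residual degrees of freedom, no replicate term). The spread estimate is shared by the 3 groups, and the number of arrays limits the precision. Members called with an absolute difference of at least 0.3 log2, and 8 core genes, are given array by array; AKR1C3 was added to the plot after its values were seen. Of each list of other pathway genes, up to 4 called genes with the largest difference from medium in biomineralized insulin and up to 2 in insulin are named. Same-numbered arrays did not deviate together. The procedure was tested on simulated data. Alternatives covered the arrays fitted, scaling, filters, probe sets, variance model, weights, threshold and each array left out. Figures used matplotlib 3.10.9.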

Additional observations from a re-analysis of the deposited data

How the results depend on the processing

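In insulin against medium, 4 members were called as reported, 0 after spike-in centring, 2 with the mean of a gene's probe sets, 0 without the intensity trend, 7 with array weights, 1 at an adjusted p under 0.01, and 1 to 7 when each array was left out (1 without medium replicate 2 or insulin replicate 3, 7 without insulin replicate 2). At an unadjusted p under 0.05, limma called 10 members there. Of the other pathway genes, 4 were called as reported, 2 with only the 6 arrays compared, 0 after spike-in centring, 2 with the mean of probe sets, 2 with the most variable probe set, 0 without the trend, 0 at an adjusted p under 0.01, and 0 to 6 when each array was left out. With the replicate number as a block, the 3 comparisons called 4, 20 and 21 members and 3, 59 and 56 other pathway genes, in the order given in the report; the numbers do not pair the arrays (correlations of their deviations from -0.234 to 0.167). In both biomineralized insulin comparisons every alternative left the count of members within 1.5 times, but that count ignores direction. Spike-in centring turned 10 higher and 12 lower into 1 and 26 against medium, and 10 and 11 into 0 and 28 against insulin. Without probe sets whose names mark shared sequence, 15 members were called against medium and 16 against insulin, in place of 22 and 21. Fewer members were tested there. FTL, GPX1, TXN, UGDH and SRXN1, all called against medium, have only such probe sets and dropped out untested. UGDH and SRXN1 are also among the calls against insulin.

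After spike-in centring, differences in biomineralized insulin against medium that turned below 0 were KEAP1 -0.27, AKR1C3 -0.14, CBR1 -0.18, EPHX1 -0.40, GCLC -0.40, GSTM3 -0.39, MGST1 -0.23, TXN -0.24, SRXN1 -0.12, PRDX1 -0.36, PRDX3 -0.37, TALDO1 -0.40, ABCC2 -0.095, GPX2 -0.23 and OSGIN1 -0.23. Against insulin they were KEAP1 -0.16, AKR1C1 -0.095, AKR1C2 -0.13, AKR1C3 -0.30, CBR1 -0.35, GPX2 -0.28, GSTM3 -0.37, MGST1 -0.22, TXN -0.33, SRXN1 -0.090, PRDX1 -0.32, PRDX3 -0.32, TALDO1 -0.38, ABCC2 -0.14 and OSGIN1 -0.17. Without probe sets whose names mark shared sequence, SLC48A1 against medium was 0.0038 and ABCC3 against insulin 0.032. With its most variable probe set, PRDX6 was 0.059 against medium and 0.063 against insulin. The cause of these changes beyond the scaling or the choice of probe set was not tested.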
